A study of Saccharomyces cerevisiae with 10 samples.

Results

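The first 20 codons of budding yeast genes were examined in 5 ribosome profiling libraries. Genes were taken if the deposited tables gave them 200 codons or more (the stop codon included) and 500 footprints or more in every strain. This left 1562 of the 4964 genes listed in all 5 strains, or 31240 codon positions per strain; 875 genes were too short and 2527 had too few footprints in at least one strain. The footprint count at each of codons 1 to 20 was divided by the mean count of the same gene from codon 101 to its last sense codon. The result is called the density here, so that a density of 1 is the average of the gene body.

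Ribosome profiling sequences the stretch of mRNA that a ribosome protects from nuclease (a footprint), and the number of footprints on a codon rises with the time that ribosomes spend there and with the number of ribosomes that pass. Translation starts when the small subunit finds a start codon and the large subunit joins, which leaves the initiator tRNA on the start codon and the empty decoding site (A site) over the next codon. The peptide formed over the first codons lies inside the exit tunnel of the ribosome and, in proteins bound for the secretory pathway or the mitochondrion, this is also where the targeting signal is encoded. The study placed each footprint on the codon in the A site, so a ribosome that has just initiated is counted at codon 2, and codon 1 should hold almost no elongating ribosome.

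All 5 strains were S288C, grown to the same optical density, collected by filtration and frozen in liquid nitrogen; the study names rich medium for its profiling of yeast and selection without uracil for the plasmid, but the medium of each culture at harvest and any elongation inhibitor are not given in the sources used here. WT was the wild type, for which no tRNA change or plasmid is described. ACA-K lacked 3 of the 4 gene copies of the threonine tRNA with anticodon UGU, which reads ACA, and carried resistance markers to nourseothricin, kanamycin and hygromycin B in their place. WT-URA was the wild type with a URA plasmid. AGG-OE carried the arginine tRNA gene tR(CCU)J, which reads AGG, on pRS426, a high-copy plasmid that carries URA3. AGG-QC carried tR(UCU)B on pRS426 with the anticodon changed to CCU. The study set ACA-K against WT, and AGG-OE and AGG-QC against WT-URA, to ask how translation depends on the supply of a tRNA (ACA-K, AGG-OE) and on the part of a tRNA outside its anticodon (AGG-QC). WT-URA differs from WT by the plasmid, by any selection that kept it and by its own library, and these cannot be told apart. In the tRNA strains, likewise, the tRNA change cannot be told apart from the single library. URA3 was listed in the 3 plasmid strains and not in WT or ACA-K. Below, 5 values given together without strain names stand for WT, then ACA-K, then the plasmid strains WT-URA, AGG-OE, AGG-QC, and 3 values together for these last 3, always in this order.

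The libraries held 6011287 to 29706058 footprints each, and the chosen genes 67.7% to 72.5% of them. The first 20 codons received 451431 to 958640 footprints per library, with a median of 117 to 176.5 per gene. Each strain had 1 footprint library, so no value below has a replicate SD and no difference a p-value. Intervals are 95% intervals. For single genes they cover counting error, and for medians they cover the uncertainty of the median over the genes measured. The interval of a median is not the range in which single genes lie. No interval covers the variation between cultures.

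The first 20 codons were loaded like the gene body in WT and ACA-K and several times more heavily in the 3 plasmid strains. They were 3.22% of the codons of these genes and received 4.54% of their footprints in WT and 4.63% in ACA-K. The share was 12% in WT-URA, 10.7% in AGG-QC and 11.4% in AGG-OE. The median density over genes was 1.0 in WT (0.973 to 1.04) and 1.05 in ACA-K (1.01 to 1.10). For the plasmid strains it was 3.73 in WT-URA (3.60 to 3.87), 3.19 in AGG-OE (3.05 to 3.33) and 3.06 in AGG-QC (2.97 to 3.17). The 3 plasmid strains thus stood together, and away from both strains without a plasmid. Genes denser at the start than in the body numbered 785 in WT and 832 in ACA-K, but 1523 in WT-URA, 1491 in AGG-QC and 1505 in AGG-OE. Without codons 1 and 2, the median density was 0.742 in WT and 0.990 in ACA-K, with 32.8% and 49.3% of genes above 1. Most of the 20 codons were thus less loaded than the body in WT.

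The excess of the plasmid strains faded along the gene. At codons 21 to 40 the median density was 1.30 in WT and 1.36 in ACA-K, against 1.99 in WT-URA, 1.75 in AGG-QC and 1.68 in AGG-OE. At codons 101 to 120 all 5 medians lay between 1.17 and 1.26. The strains therefore differed most at the start of the gene; codons 101 to 120 are themselves part of the divisor.

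Codon 2 was the most loaded of the 20 in every strain. Its mean density over genes was 7.36 in WT and 3.69 in ACA-K, but 20.8 in WT-URA, 14.4 in AGG-QC and 20.2 in AGG-OE. Codon 2 alone held 32.6% of the footprints of the first 20 codons in WT and 15.1% in ACA-K, with 22.5%, 26.3% and 20.3% in the 3 plasmid strains. Codon 1, in contrast, had mean densities of only 0.142, 0.0824, 0.348, 0.229 and 0.264, and no footprint in 58.6% to 79.8% of genes. Codon 2 is where a ribosome with the initiator tRNA on the start codon is counted.

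**Figure D1:**
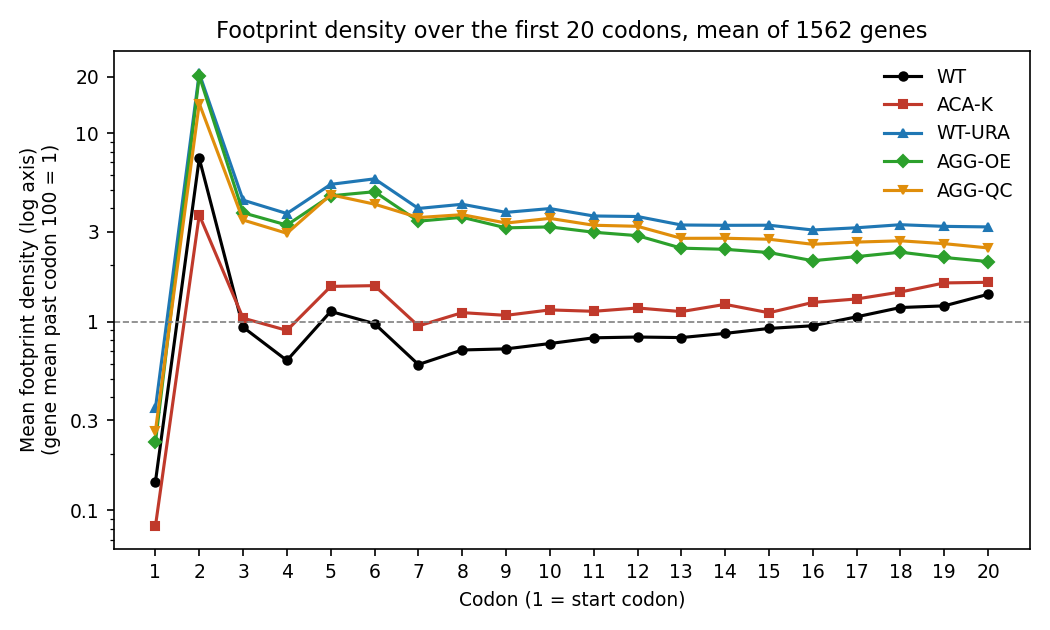
Mean footprint density (log axis, gene mean past codon 100 set to 1) at codons 1 to 20 over the 1562 genes, with 1 line per strain and 1 library per strain. Codon 2 is highest in all 5 lines, at 3.69 in ACA-K and 20.8 in WT-URA, and from codon 3 on the 3 plasmid strains lie above WT and ACA-K.

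After codon 2 the curves took different courses. In WT the mean density dropped to 0.624 at codon 4, reached 1.13 at codon 5, was lowest at codon 7 (0.594) and climbed from there to 1.40 at codon 20. ACA-K followed the same outline at a higher level, from 0.901 at codon 4 through 1.56 at codon 6 to 1.62 at codon 20. WT-URA instead peaked at codon 6 (5.73) and declined to 3.07 at codon 16. AGG-OE declined from 4.90 at codon 6 to 2.09 at codon 20, and AGG-QC from 4.72 at codon 5 to 2.47 at codon 20. A local rise at codons 5 and 6, between lower values at codons 4 and 7, was common to all 5 libraries.

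Within each strain, the slope of the mean was also the order seen in most genes. How many genes changed order between strains was not counted. Among genes with 30 or more footprints in the first 20 codons, codons 15 to 20 held more footprints than codons 3 to 8 in 925 of 1495 genes in WT (61.9%) and in 788 of 1434 in ACA-K (55.0%). The plasmid strains had the reverse order in most genes: the later codons were the denser ones in 34.0% of genes in WT-URA, 34.8% in AGG-QC and 27.1% in AGG-OE. The 2 groups of strains did not overlap in this share.

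Genes differed widely in their load of codon 2. The median density at codon 2 was 5.51 in WT, with an interquartile range of 3.15 to 9.27. It was 2.17 in ACA-K (0.941 to 4.41), but 12.4 in WT-URA (5.19 to 26.5), 7.01 in AGG-QC (2.67 to 17.9) and 11.1 in AGG-OE (4.36 to 26.3). Over codons 3 to 20 the medians were 0.742 in WT and 0.990 in ACA-K, but 3.25 in WT-URA, 2.73 in AGG-QC and 2.62 in AGG-OE. Codon 2 was the highest of the 20 in 69.3% of genes in WT and in 23.8% in ACA-K, with 45.1%, 47.5% and 33.6% in the 3 plasmid strains. Of the 1389 genes with 30 or more footprints in every strain, codon 2 led in all 5 strains in 205 and in none in 277.

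**Figure D2:**
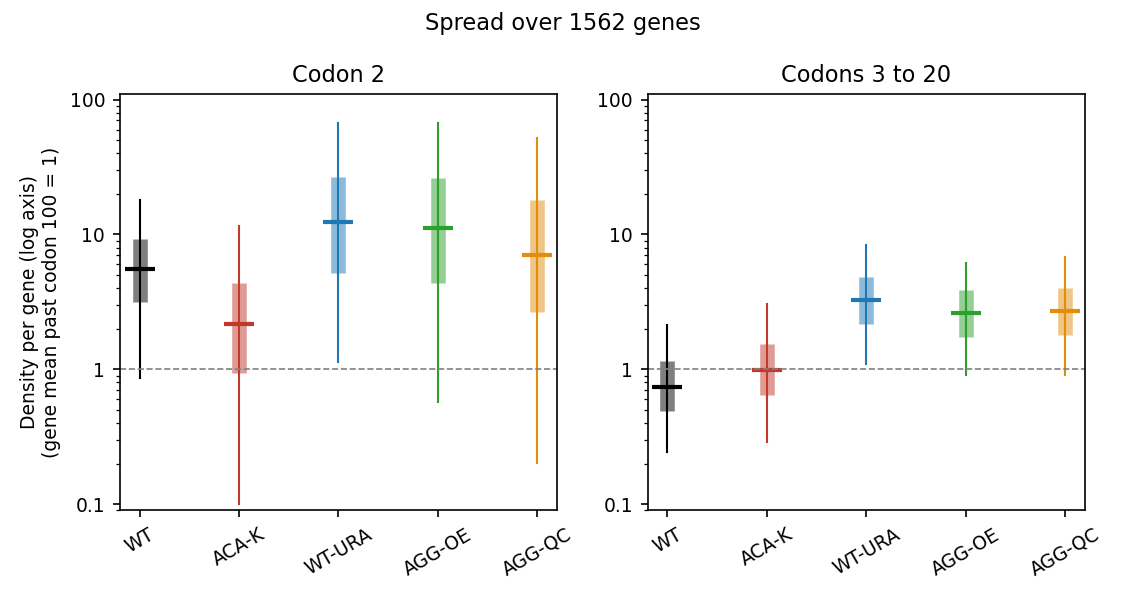
Density per gene (log axis, gene mean past codon 100 set to 1) at codon 2 and over codons 3 to 20 in each strain, over 1562 genes. The horizontal mark is the median, the thick bar the interquartile range and the thin line spans the 5th to the 95th percentile (drawn no lower than 0.1). The median at codon 2 is 5.51 in WT and 2.17 in ACA-K, whereas over codons 3 to 20 it is 0.742 in WT and 0.990 in ACA-K.

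ACA-K and WT had nearly the same total over the first 20 codons, made up differently. The median log2 ratio of ACA-K to WT was 0.06 for all 20 codons (0.03 to 0.10), but -1.29 at codon 2 (-1.38 to -1.22) and 0.39 over codons 3 to 20 (0.36 to 0.43). At codons 101 to 120 it was -0.07, with 25 of 1512 genes higher by 2-fold or more (1.65%) and 41 lower (2.71%). A 2-fold difference over the 20 codons was seen in few genes: 63 of 1506 were higher in ACA-K (4.18%) and 38 lower (2.52%). At codon 2, counted in genes with 2 or more footprints per codon in the body, 797 of 1303 genes were lower by 2-fold or more (61.2%) and 14 were higher (1.07%). Over codons 3 to 20 the direction was opposite, with 175 of 1317 higher (13.3%) and 10 lower (0.759%). Taken singly, codon 2 was lower in ACA-K than in WT in 89.1% of 1537 genes, and codons 3 to 20 were higher in 77.1% of 1557. Both held in 989 of the 1442 genes with footprints in both windows in both strains (68.6%). The sizes of the 2 log2 ratios were not related over these 1442 genes (Spearman's rho 0.00076, a description). In 641 of the 1389 genes codon 2 was the highest of the 20 in WT and not in ACA-K, and in 17 it was the reverse.

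By position, the mean density of ACA-K was 0.50 times that of WT at codon 2, 1.12 times at codon 3, 1.60 times at codon 7 and 1.16 times at codon 20. Which of these codons are ACA was not analysed here, since no coding sequence was used.

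The 5 largest falls of the first 20 codons in ACA-K included both genes of the ribosome-bound Hsp70 that meets nascent chains, SSB1 and SSB2. SSB1 had 3590 footprints there in WT and 806 in ACA-K, and its density was 5.57 against 2.05, a log2 ratio of -1.44 (-1.55 to -1.33). SSB2 went from 1420 to 315 footprints and from 4.10 to 1.39 (log2 ratio -1.56, -1.74 to -1.39). In both genes most of the footprints were at codon 2: 3191 of 3590 in WT and 640 of 806 in ACA-K for SSB1, and 1157 of 1420 and 201 of 315 for SSB2. The log2 ratio at codon 2 was -1.61 for SSB1 and -1.92 for SSB2. Both lay within the interquartile range of all genes there (-2.11 to -0.58). Over codons 3 to 20 the falls were smaller, -0.56 for SSB1 and -0.43 for SSB2, where the median of all genes was 0.39. SSB1 and SSB2 are near-identical, only uniquely mapped reads were counted, and their separate values are therefore uncertain. The other 3 were CCC1, a vacuolar iron transporter (28 footprints against 134, log2 ratio -1.93), MCD1, a cohesin subunit (36 against 159, -1.30), and RTN1, a membrane-shaping protein of the endoplasmic reticulum (245 against 813, -1.26).

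The largest rise in ACA-K sat on 1 codon. RPS1B, a protein of the small ribosomal subunit with a near-identical paralog, had 26534 footprints in the first 20 codons in ACA-K and 12625 in WT, for densities of 14.5 and 3.94 (log2 ratio 1.88, 1.85 to 1.91). Codon 19 held 17196 of them in ACA-K and 3608 in WT, against 366 in WT-URA, 147 in AGG-QC and 433 in AGG-OE, the 3 strains where codon 12 was the highest. RPS1B codon 2 moved the other way, from 1931 footprints in WT to 500 in ACA-K. PUS1, a tRNA pseudouridine synthase, followed with a log2 ratio of 1.61 (274 footprints against 133), then PPX1, an exopolyphosphatase, with 1.43 (327 against 174), YLR225C with 1.41 and MAS1, a subunit of the protease that removes mitochondrial presequences, with 1.40 (112 against 75).

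AGG-OE and AGG-QC were both lower than WT-URA at the start of genes; the pair share that control library. The median log2 ratio over the first 20 codons was -0.23 in AGG-OE (-0.25 to -0.21) and -0.29 in AGG-QC (-0.31 to -0.27), while at codons 101 to 120 it was 0.01 and -0.01. At those later codons 6 of 1284 genes were higher by 2-fold or more in AGG-OE (0.467%) and 1 lower (0.0779%), and 2 of 1204 higher in AGG-QC (0.166%) and 6 lower (0.498%). Over the first 20 codons no gene was higher by 2-fold in either strain (0% of 1541 and of 1540), 31 genes were lower by 2-fold or more in AGG-OE (2.01%) and 52 were lower in AGG-QC (3.38%). These counts of lower genes were 0 and 1 with 2000 or more footprints (at most 404 genes), and 2 and 10 with a pseudo-count of 1. The median for AGG-OE was -0.10 with 2000 footprints and -0.079 with footprints summed over genes. These differences are small beside the gap of 1.87 between WT-URA and WT.

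The 2 strains parted at codon 2. In AGG-OE the median log2 ratio was -0.10 at codon 2 and -0.29 over codons 3 to 20, and at codon 2 it became 0.06 when only the 404 genes with 2000 or more footprints in every strain were kept, and 0.14 when footprints were summed over genes. In AGG-QC the order was opposite, with -0.70 at codon 2 (-0.31 with footprints summed over genes) and -0.22 over codons 3 to 20. By 2-fold, codon 2 was lower in 60 of 865 genes in AGG-OE (6.94%) and in 201 of 731 in AGG-QC (27.5%), and higher in 24 (2.77%) and 9 (1.23%). Over codons 3 to 20, by the same minimum in the gene body, 4 of 870 were lower in AGG-OE (0.46%) and none higher (0%), and 6 of 741 were lower in AGG-QC (0.81%) and 2 higher (0.27%). With the minimum of 30 footprints in the first 20 codons instead, 50 genes were lower over codons 3 to 20 in AGG-OE and 42 in AGG-QC. At codon 2 the count for AGG-QC was 364 with a pseudo-count of 1 and 100 with 2000 or more footprints. Neither count is out of the 731 genes. The pseudo-count was added before the minimum in the gene body was applied, which let in more genes. With 2000 footprints at most 404 genes entered. Along the 20 codons the mean density of AGG-OE relative to WT-URA slid from 0.97 times at codon 2 to 0.66 times at codon 20, whereas AGG-QC went from 0.69 to 0.77 times.

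**Figure D3:**
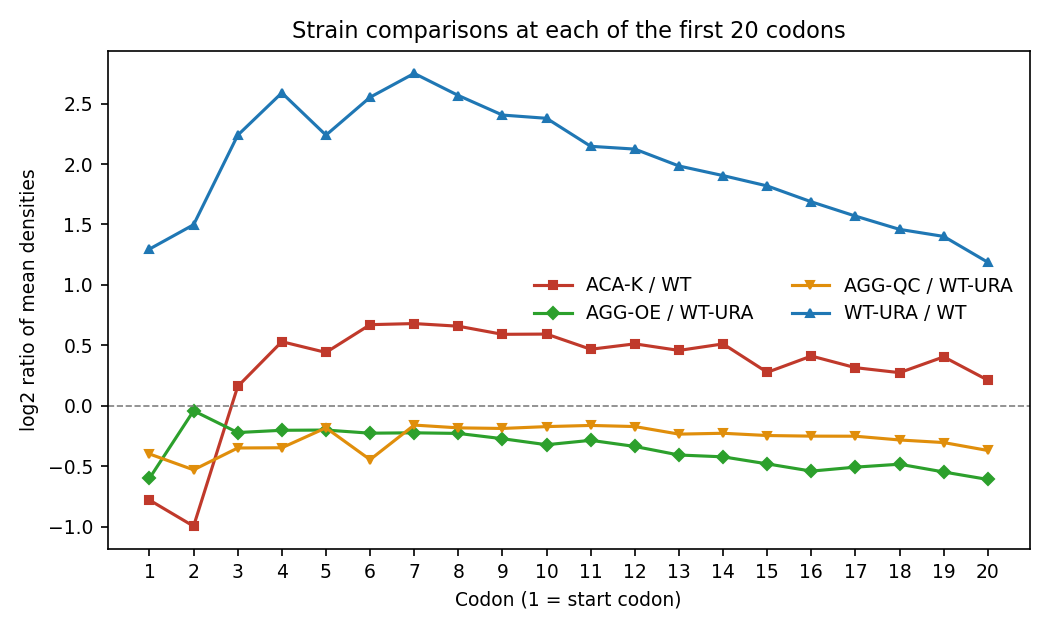
log2 ratio of the mean densities of 2 strains at codons 1 to 20, 1 line per comparison, 1 library per strain and 1562 genes. ACA-K over WT is 0.50 times at codon 2 and 1.60 times at codon 7, AGG-OE over WT-URA declines to 0.66 times at codon 20, and WT-URA over WT is highest at codon 7 (6.73 times).

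The genes with the largest falls in AGG-OE were CSE1, which exports importin alpha from the nucleus (36 footprints against 85 in WT-URA, log2 ratio -1.52), HSE1, of the endosomal sorting machinery (-1.25), PLB2, a phospholipase B (-1.23), RPN4, the activator of proteasome genes (-1.22), and BDF2, a bromodomain protein (-1.17). They rest on 25 to 43 footprints each in AGG-OE. In AGG-QC they were OPY2, a membrane anchor of osmotic stress signaling (10 against 35, -1.55), BUD4, which marks bud sites (-1.39), TMA108 (-1.38), EMC10, of the endoplasmic reticulum membrane complex (-1.31), and SIT1, a siderophore transporter (91 against 267, -1.30).

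Rises were smaller. In AGG-OE they were led by SUN4, a cell wall protein (777 footprints against 422, log2 ratio 0.69, 0.51 to 0.86) and HXK2, the main hexokinase (2487 against 1491, 0.62, 0.53 to 0.71), followed by PSP2 (0.52), UTH1 (0.51) and PRY2, a secreted sterol-binding protein (0.50). In HXK2 the rise was at codon 2, with 1805 footprints in AGG-OE and 784 in WT-URA (log2 ratio 1.08), and codons 3 to 20 gave -0.17. In AGG-QC they were YBR053C (0.69, 0.35 to 1.02) and COR1, a core subunit of respiratory complex III (0.56, 0.28 to 0.85). For RFA2, LAP2 and GPD2, next in order, the interval included 0.

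Over the first 20 codons WT-URA differed from WT far more than any tRNA strain differed from its control. The median log2 ratio was 1.87 over the first 20 codons (1.83 to 1.91), 1.29 at codon 2 and 2.08 over codons 3 to 20, and 0.06 at codons 101 to 120, where 47 of 1511 genes were higher by 2-fold or more (3.11%) and 55 lower (3.64%). Over the 20 codons 1435 of 1547 genes were higher by 2-fold or more in WT-URA (92.8%) and 3 were lower (0.194%). At codon 2 the picture was more mixed, with 431 of 874 genes higher (49.3%) and 95 lower (10.9%). Over codons 3 to 20 835 of 880 were higher (94.9%) and 2 were lower (0.227%). The ratio of mean densities climbed from 2.82 at codon 2 to 6.73 at codon 7 and then fell to 2.28 at codon 20.

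The gene that rose most was CIT2, the peroxisomal citrate synthase. It had 175 footprints in its first 20 codons in WT and 160 in ACA-K, against 2387, 3116 and 1595 in the 3 plasmid strains. Its density went from 1.27 in WT to 25.4 in WT-URA (log2 ratio 4.32, 4.09 to 4.55). Codon 5 was the highest in the plasmid strains, with 853, 1113 and 606 footprints, and held 20 in WT and 36 in ACA-K. The 3 plasmid strains thus shared the position. BAP2, a permease for branched-chain amino acids, rose from 0.676 to 10.6 (log2 ratio 3.96), and the next were the transcription regulators YHP1 (3.70), BDF1 (3.69) and RIM101 (3.66).

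The 3 genes that fell by 2-fold were the Hsp90 genes HSP82 and HSC82, and CAP1, a subunit of the actin capping protein. HSP82 had 191 footprints in its first 20 codons in WT and 157 in ACA-K, but 5, 5 and 3 in the 3 plasmid strains. Codon 2 of HSP82 accounted for 166 and 135 of them in WT and ACA-K, and had none in any plasmid strain. HSC82 behaved alike, with 1355 and 585 footprints in WT and ACA-K against 51, 55 and 25, and log2 ratio -2.35 (-2.78 to -1.94) for WT-URA over WT. HSP82 and HSC82 are near-identical, so the split of their reads is uncertain. In CAP1, codon 20 held 1317 of 1553 footprints in WT and 825 of 962 in ACA-K, but 32 of 263 in WT-URA, 12 of 209 in AGG-QC and 34 of 260 in AGG-OE. The next genes in order, TPD3 (-0.25) and EFM5 (0.10), had intervals that included 0.

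The order of genes was kept best among the plasmid strains. Spearman's rho over the 1562 genes, given as a description and sharing gene length and composition, was 0.802 between WT and ACA-K for the density of the first 20 codons, 0.922 to 0.924 among the plasmid strains, and 0.690 to 0.725 between WT and a plasmid strain. Within a gene, the median rho of the counts at codons 3 to 20 was 0.711 between WT and ACA-K (910 genes with 100 or more footprints in both), 0.872 to 0.880 among the plasmid strains and 0.558 to 0.593 between WT and a plasmid strain. Between ACA-K and a plasmid strain, rho was 0.655 to 0.688 over genes, below the values of WT, and 0.636 to 0.645 within genes, above them. The plasmid strains therefore resembled each other most in where ribosomes stood within the first 20 codons, as well as in how many there were.

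A few genes had almost no footprints at their annotated start in any strain. The density was under 0.1 in all 5 strains in 5 genes: PRT1, ISW1, GRX3, MOG1 and ERG13. PRT1, a subunit of initiation factor eIF3, had 0 footprints in its first 20 codons in every strain, although the whole gene held 24271 in WT and 3410 in AGG-QC; in WT the upper 95% limit of the density was 0.0054. The first codon of PRT1 to reach its gene mean was codon 41 in all 5 strains, with 0 to 4 footprints upstream of it and 175 on it in WT. ERG13, the HMG-CoA synthase of ergosterol synthesis, had 0 to 3 footprints in the first 20 codons, and reached its gene mean at codon 32 in all 5 strains after 8 to 13 footprints. In both genes the onset fell on the same codon in every library.

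The other 3 had less uniform onsets. MOG1, which acts in nuclear import, had 0 or 1 footprint in the first 20 codons, and its highest codon among the first 100 was codon 50 in every strain, with 113 footprints in WT and 60 in WT-URA. GRX3, a glutaredoxin of iron regulation, had none in any strain, reached its gene mean at codon 57 in WT and ACA-K and at codon 37 or 39 in the plasmid strains, and was highest at codon 70 or 78. ISW1, the ATPase of a chromatin remodeler, had none either, and its highest codon was 62 in 4 strains and 67 in AGG-QC. Where these proteins start was not tested.

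**Figure D4:**
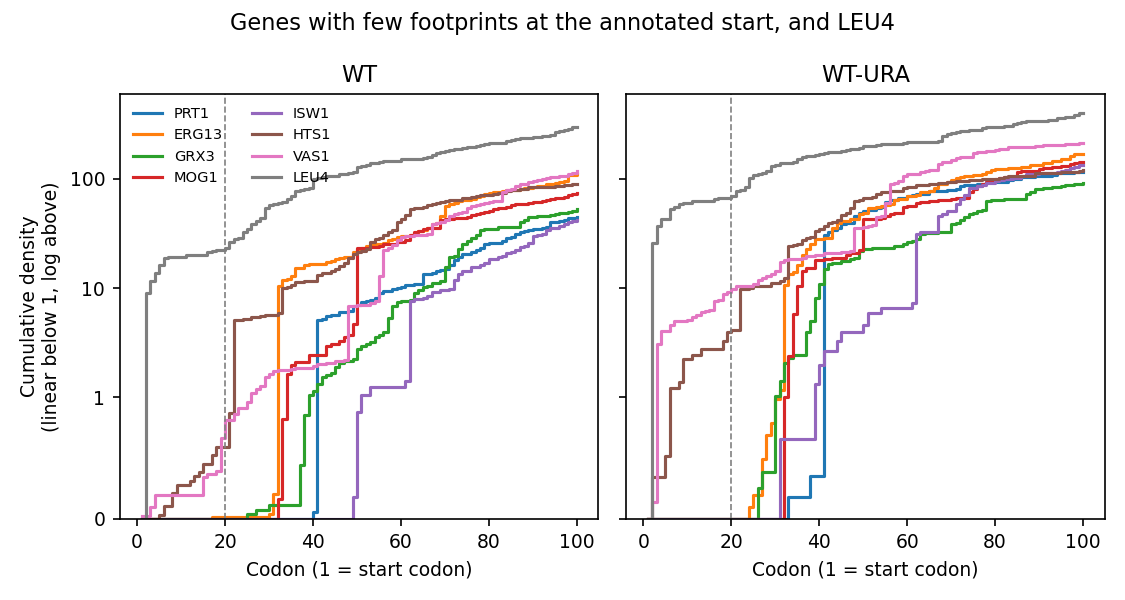
Cumulative density (gene mean past codon 100 set to 1; linear below 1, log above) over codons 1 to 100 for 8 genes in WT and WT-URA, with the dashed line at codon 20. PRT1 steps up at codon 41 and ERG13 at codon 32 in both libraries, whereas LEU4 rises from codon 2.

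Genes known to make a mitochondrial and a cytosolic form from a pair of in-frame start codons were read in the same way. Of the 9 such genes listed for this comparison, 4 passed the rule. HTS1, the histidyl-tRNA synthetase, had 17 footprints in the first 20 codons in WT and 2 in ACA-K, with 24 in WT-URA, 18 in AGG-QC and 16 in AGG-OE. Its densities there were 0.0297, 0.00439, 0.208, 0.116 and 0.248. HTS1 reached its gene mean at codon 22 in WT, WT-URA and AGG-OE, at codon 33 in ACA-K and at codon 8 in AGG-QC. That codon 8 held 4 footprints in AGG-QC, so the first codon at the gene mean rests there on few reads. Whether the start of HTS1 differed between strains was not tested. VAS1, the valyl-tRNA synthetase, had densities of 0.0408, 0.0324, 0.495, 0.279 and 0.360 and reached its gene mean at codon 48 in WT and ACA-K but at codon 3 in the 3 plasmid strains. GLR1, glutathione reductase, had 0.439, 0.412, 2.07, 2.07 and 2.22, with 0 to 6 footprints at codon 2, and LEU4, an isopropylmalate synthase, had 1.16, 0.907, 3.50, 3.64 and 4.18. The median gene had 1.0, 1.05, 3.73, 3.19 and 3.06. All 4 were higher in WT-URA than in WT, as most genes were.

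At the other end stood TDH2 and TDH3, glyceraldehyde-3-phosphate dehydrogenase genes whose sequences are near-identical and whose separate values are uncertain. TDH3 had 44404 footprints in its first 20 codons in WT, 30265 of them at codon 2, and densities of 11.7, 10.2, 28.6, 31.9 and 30.6 in the 5 strains. TDH2 had 17.9, 9.75, 33.2, 42.3 and 38.4. Of the other genes with the highest densities, DIP5, a permease for acidic amino acids, had 2.73, 2.60, 14.5, 11.9 and 10.7, and YNL190W had 2.10, 2.07, 11.1, 13.6 and 11.2. MIT1, a regulator of filamentous growth, had 2.10, 3.63, 15.8, 12.8 and 10.5. Here codon 6 and not codon 2 was the highest in all 5 strains, with 63 of 154 footprints in WT and 168 of 384 in WT-URA for MIT1.

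Groups of genes of known function were set beside the median of all 1562 genes. The highest and lowest members named for a group are those by the median over the 5 strains, and need not be the extremes in a single strain. Among the groups with more than 4 measured genes the tRNA synthetases stood lowest in every strain but WT, where the chaperones were slightly lower. Their median densities were 0.770, 0.726, 1.99, 1.83 and 1.66 in the 5 strains, and 7, 5, 1, 3 and 3 of the 21 genes lay above the median of all genes. At codon 2 their median was 5.37 in WT-URA against 12.4 for all genes. HTS1 was the lowest of them and YHR020W, the prolyl-tRNA synthetase, with 1.46 to 4.65 over the strains, the highest. The 23 plasma membrane transporters stood highest, with 1.19, 1.40, 5.07, 3.63 and 3.82, and 18 of 23 above the median of all genes in WT-URA and 14 of 23 in WT. HXT2, a hexose transporter, was by that median the lowest of them (0.345 in WT and 0.735 in WT-URA) and DIP5 the highest.

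Genes whose first codons encode a targeting signal were read at codon 2 and after it. The 48 secreted and endoplasmic reticulum proteins had medians of 17.5, 19.0 and 12.3 at codon 2 in the plasmid strains, against 12.4, 11.1 and 7.01 for all genes. Over codons 3 to 20 they were lower than all genes in the same strains, with 2.30, 2.11 and 2.28 against 3.25, 2.62 and 2.73. In WT both values were near those of all genes, 5.11 against 5.51 and 0.73 against 0.742. KEX2, the protease of the late Golgi, was by the median over strains the highest of them (3.52 in WT and 14.4 in WT-URA) and PST1, a cell wall protein, the lowest (0.281 and 1.56). The 47 genes with a mitochondrial presequence had medians of 0.808, 0.813, 2.84, 2.92 and 2.67 over the 20 codons, with 14, 15, 14, 20 and 19 of 47 above the median of all genes. In the plasmid strains their medians were 13.5, 15.7 and 10.1 at codon 2, above those of all genes, and 2.31, 2.31 and 2.10 over codons 3 to 20, below them. KGD2, a subunit of the 2-oxoglutarate dehydrogenase complex, was by the median over strains the lowest (0.352 in WT). MAS2, the partner of MAS1 in the presequence protease, was the highest (1.29 in WT and 9.27 in WT-URA). At codon 2, 25, 28 and 28 of the 47 presequence genes were above the median of all genes in the plasmid strains. In WT and ACA-K the group had 4.85 and 1.89 there, below all genes (5.51 and 2.17). A high codon 2 was not limited to the secreted and presequence groups. In WT-URA the transporters had 21.6 and the glycolytic genes 13.4, against 12.4 for all genes. The remaining groups were lower, the highest being the ribosomal proteins (10.97).

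**Figure D5:**
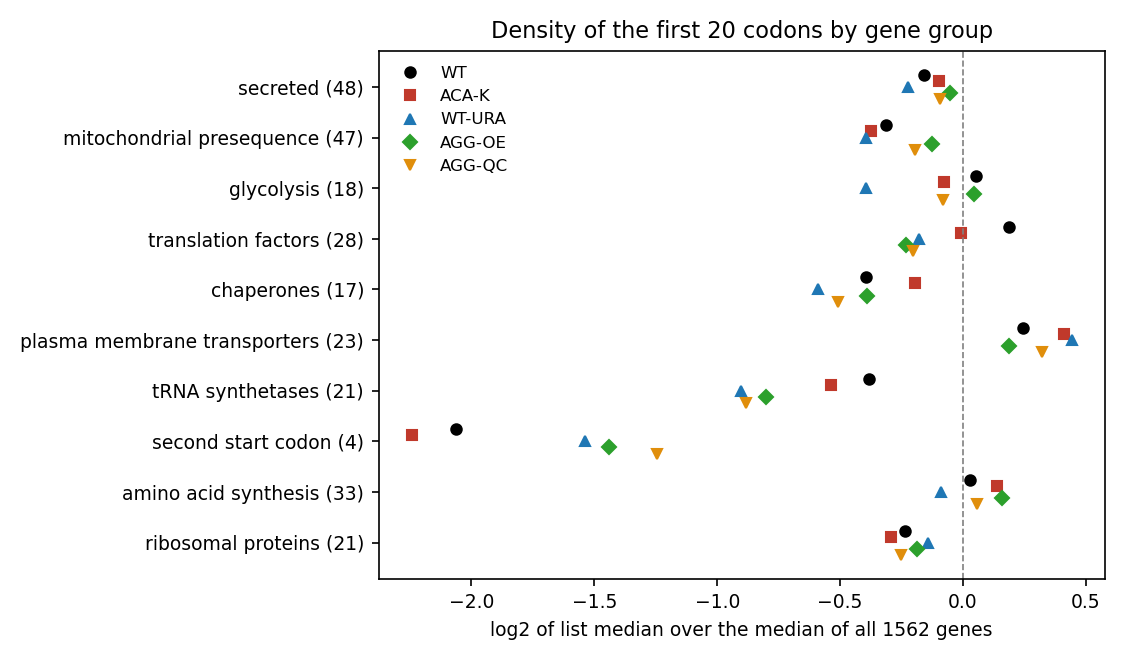
Median density of the first 20 codons in each gene group, as log2 of its ratio to the median of all 1562 genes in the same strain, with the number of measured genes in brackets and 1 marker per strain. tRNA synthetases lie left of 0 (0.770 against 1.0 in WT) and plasma membrane transporters right of 0 (1.19 against 1.0 in WT) in all 5 strains.

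The remaining groups lay on both sides of the median of all genes in WT. The 18 glycolytic genes had medians of 1.04, 0.998, 2.84, 3.29 and 2.89, and by the same median spanned from PGK1, phosphoglycerate kinase (0.458 in WT), to TDH2. The 28 translation factors had 1.14, 1.05, 3.30, 2.71 and 2.66, by that median from PRT1 to NEW1, a ribosome-binding ATPase (2.93 in WT, with codon 4 or 5 the highest). The 33 genes of amino acid synthesis had 1.02, 1.16, 3.51, 3.55 and 3.18, by that median from SER33, of serine synthesis (0.729 in WT), to MET6, methionine synthase (2.31 in WT, with codon 16 the highest in every strain). The 17 chaperones were lower, with 0.763, 0.920, 2.48, 2.43 and 2.15, from HSP82 to SSB2 by that median. Of 124 ribosomal protein genes 21 passed the rule, with 0.853, 0.861, 3.38, 2.80 and 2.57, and RPL2A, which has a paralog of the same protein sequence, was the lowest of them by the median over the strains.

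At codon 2 ACA-K was lower than WT in 1369 of 1537 genes (89.1%). Among the groups it was lower in 23 of 23 transporters, 17 of 18 tRNA synthetases, 26 of 27 translation factors, 16 of 18 glycolytic genes, 40 of 47 genes with a mitochondrial presequence and 38 of 48 secreted proteins. In AGG-OE the glycolytic genes had a median log2 ratio to WT-URA of 0.37 at codon 2, with 15 of 18 higher. All genes had -0.10 there, with 664 of 1546 higher (42.9%), and this median was 0.06 with 2000 or more footprints and 0.14 with footprints summed over genes. In AGG-QC the same group had -0.16, where all genes had -0.70.

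Longer genes were denser at the start in every strain. Median densities of genes with 200 to 300 codons were 0.896 in WT and 0.914 in ACA-K, with 2.98 in WT-URA, 2.56 in AGG-QC and 2.83 in AGG-OE (271 genes), and those of genes over 800 codons were 1.32, 1.38, 5.32, 3.93 and 3.82 (363 genes). Spearman's rho with length, over 1562 genes, was 0.203, 0.216, 0.344, 0.234 and 0.271 in the same order. With the mean footprint count per codon of the gene body it was -0.246, -0.252, -0.504, -0.347 and -0.403, which is a description only, since that mean is also the divisor of the density. The relation with length is a description too. The minimum of 500 footprints applies to the whole gene, so longer genes can pass with a lower mean per codon. The 121 genes just above the footprint minimum of the rule (500 to 549 in their lowest strain) had medians of 1.11, 1.12, 4.45, 3.57 and 3.56, and the 154 genes just below (450 to 499) had 1.12, 1.21, 4.95, 3.58 and 3.85. In both sets the plasmid strains were above WT and ACA-K.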

How the data were processed

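The deposited tables give, for each gene and strain, a raw count of footprints at every codon and their sum, and an mRNA signal; per the sources, the authors mapped reads of 28 to 31 nucleotides with Bowtie 1.0.0, allowing 2 mismatches and unique hits only, and placed each on its A-site codon. The mRNA signal, whose unit the deposited tables do not name, enters no value in the text. Here counts were divided by the gene mean from codon 101 to the last sense codon, with no pseudo-count. Each strain has 1 library, so no significance test was run. Intervals are exact Poisson for a count, exact binomial for a ratio and order-statistic for a median, and cover 95%. Calls of 2-fold used genes with 30 or more footprints in the first 20 codons in at least one strain of the pair, or, for codon 2 and codons 3 to 20, 2 or more footprints per codon in the body of both. Named genes were the 6 highest and 6 lowest by the median over strains and the 5 largest rises and falls of each comparison, all with 1 or more footprint per codon in the body in all 5 strains, and, without that minimum, all genes of the list with a second start codon and the highest and lowest of each other list. The genes and the 10 lists were chosen with earlier results of these data known. Symbols came from RefSeq locus tags for 1561 of 1562 genes. Analyses by codon or residue were not run here. Scripts ran in Python 3.11.15 with scipy 1.17.1 for intervals, pandas 2.3.3 and numpy 2.4.6 for tables and matplotlib 3.10.9 for plots, and were tested on simulated data. Alternatives were the gene mean without the last 20 codons, 2000 or more footprints, a pseudo-count of 1, codons 3 to 20 only, sums or medians over genes and a minimum of 100 footprints for calls. For calls with codons 3 to 20 only, the minimum of 30 footprints applied to those codons.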

Additional observations from a re-analysis of the deposited data

How the results depend on the processing

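No paired analysis was possible because each strain has 1 library. Leaving out the last 20 codons from the gene mean moved none of the 46 main results beyond its interval or, for counts, by over 1.5 times, and codon 2 had the highest density in every strain under the 5 alternatives run for it (that gene mean, 2000 footprints, a pseudo-count, and sums or medians over genes). With 2000 or more footprints in every strain (404 genes), the median density was 0.902 in WT, 0.912 in ACA-K, and 2.86, 2.69 and 2.53 in the plasmid strains. With codons 3 to 20 it was 0.742, 0.990, 3.25, 2.62 and 2.73. Summing footprints gave 1.05 in WT, 3.26 in WT-URA and 2.91 in AGG-QC, and a pseudo-count of 1 gave 2.84, 2.49 and 2.28 in the 3 plasmid strains. The gap between plasmid strains and the others stayed in each. The median log2 ratio of ACA-K to WT was 0.015 with 2000 footprints and 0.39 with codons 3 to 20. At codon 2 it was -1.06 with sums, and over codons 3 to 20 0.34 with the pseudo-count. For AGG-OE to WT-URA it was -0.10 with 2000 footprints, -0.29 with codons 3 to 20, -0.079 with sums and -0.17 with the pseudo-count. Codon 2 turned to 0.059 with 2000 footprints and 0.14 with sums, and codons 3 to 20 gave -0.15 with 2000 footprints, -0.15 with sums and -0.22 with the pseudo-count. For AGG-QC to WT-URA the values were -0.19 with 2000 footprints, -0.22 with codons 3 to 20 and -0.16 with sums. Codon 2 gave -0.60 with 2000 footprints and -0.31 with sums, and codons 3 to 20 gave -0.14, -0.12 with sums and -0.24 with the pseudo-count. For WT-URA to WT they were 1.65 with 2000 footprints, 2.08 with codons 3 to 20, 1.63 with sums and 1.49 with the pseudo-count, with 0.82 (2000 footprints), 1.10 (sums) and 0.96 (pseudo-count) at codon 2 and 1.90, 1.84 and 1.65 over codons 3 to 20. Genes past 2-fold in ACA-K were 9 higher and 13 lower with 2000 footprints, 215 and 9 with codons 3 to 20, 26 and 12 with the pseudo-count, and 31 and 22 with 100 footprints. Lower in AGG-OE were 0, 50, 2 and 10 under these, and lower in AGG-QC 1 with 2000 footprints, 10 with the pseudo-count and 24 with 100 footprints. In WT-URA against WT 357 genes were higher with 2000 footprints, out of at most 404, and 1 was lower with codons 3 to 20. The numbers tested under the alternatives are not given here. The counts in this section therefore have no share and cannot be set directly beside the main counts. At codon 2 with 2000 footprints, 0 genes were higher and 255 lower by 2-fold in ACA-K, 169 and 45 in WT-URA against WT, 2 and 100 in AGG-QC, 10 and 15 in AGG-OE. Over codons 3 to 20 the higher and lower genes were then, in this order, 38 and 1, 374 and 1, 1 and 1, and 0 and 0. With the pseudo-count 364 genes were lower at codon 2 in AGG-QC, and over codons 3 to 20 2 were lower in ACA-K, 0 higher and 3 lower in AGG-QC and 1 lower in WT-URA against WT. Fewer genes enter with 2000 or 100 footprints. With the pseudo-count, more genes enter the calls at codon 2 and over codons 3 to 20. There the minimum of 2 per codon in the body was applied after the pseudo-count was added. The cause of the other shifts was not tested. HXK2 turned to -0.17 in AGG-OE and TPD3 to 1.12 in WT-URA with codons 3 to 20. The limits are 1 library per strain, a body mean of 1.90 to 8.73 footprints per codon in the median gene, and reads of near-identical genes that unique mapping cannot place.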
